A study of Mus musculus with 42 samples.

Results

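Shmt1, Shmt2, Tfrc, Hspd1, Hspe1 and Nme1 are 6 genes that are widely described as targets of the transcription factor Myc. They were chosen by name, with roles in one-carbon metabolism, iron uptake, mitochondrial protein folding and nucleotide metabolism. All 6 genes were measured, by 7 of the 22800 probes of the array, and all 7 probes were among the 9407 that passed the filter on missing values, which held 7629 genes. RNA of 21 mouse mammary tumours was hybridised to 42 two-colour oligonucleotide arrays, 2 for each tumour with the dyes exchanged, against a universal mouse reference RNA. Each value is therefore a log2 ratio of tumour to a shared reference. The levels below have the median of the array subtracted, so a level of 0 is the ratio of the median probe of that array. The tumours descended from mammary neoplasms of FVB/N-Tg(WapMyc)212Bri mice, in which c-Myc is driven by the Wap promoter, active in secretory mammary epithelium. Selection in living animals had yielded lines with a glandular pattern, a solid or comedo pattern with or without spread to the lungs, and a spindle-cell (mesenchymal) pattern. All samples share the transgenic origin, no sample is a tissue without it, and neither the host animals nor their ages are given in the sources used here. Which line a tumour belongs to is not in the labels, which give a tumour number for every array, so the 21 numbered tumours are the groups compared. The 2 arrays of a tumour are technical repeats, and p-values between tumours measure hybridisation error and not the spread between animals.

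Myc binds DNA as a dimer with Max, most readily at the sequence called the E-box, and raises transcription of many genes for growth. Serine hydroxymethyltransferases move a carbon unit from serine to folate, in the cytosol (Shmt1) and in mitochondria (Shmt2), and feed the synthesis of purines and thymidylate. Tfrc is the transferrin receptor, through which proliferating cells take up iron. Hspd1 and Hspe1 are the Hsp60 and Hsp10 proteins, the barrel and lid of the mitochondrial chaperonin, and their genes lie head to head as neighbours on chromosome 1. Nme1 is a nucleoside diphosphate kinase, which passes phosphate between nucleotides, and its gene lies next to that of its paralog Nme2 on chromosome 11.

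The promoters of Shmt1 and Nme1, the pair whose levels were most alike when each gene was read from a different array, are printed below from RefSeq on GRCm38.p6. Each run covers the 250 bases before the outermost start of the gene, 5′ to 3′ on the gene's strand, and all 6 genes were matched in that table. Capitals mark CACGTG, the E-box, which reads the same on both strands, or CACGCG, a variant of it, in either direction (CGCGTG on the other strand).
Shmt1, chr11:60811266-60811515, minus strand: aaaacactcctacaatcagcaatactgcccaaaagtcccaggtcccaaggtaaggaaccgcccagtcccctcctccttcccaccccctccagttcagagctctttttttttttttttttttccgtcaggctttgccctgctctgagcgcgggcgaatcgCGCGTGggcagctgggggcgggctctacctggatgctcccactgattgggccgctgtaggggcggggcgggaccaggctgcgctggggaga
Nme1, chr11:93968273-93968522, minus strand: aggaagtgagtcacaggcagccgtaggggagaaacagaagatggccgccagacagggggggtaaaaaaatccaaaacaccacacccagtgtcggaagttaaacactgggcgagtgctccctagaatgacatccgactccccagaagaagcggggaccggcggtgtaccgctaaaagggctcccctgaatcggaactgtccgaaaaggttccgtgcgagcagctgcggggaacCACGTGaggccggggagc
The E-box of Nme1 began 18 bases before this start, and the window of its other start held an E-box as well. Shmt1 had no CACGTG there and 1 CACGCG, 91 bases before its start. For Hspd1 and Tfrc, which differ in level and in dependence on scale below, the 30 bases around the first match are shown.
Hspd1, chr1:55088306-55088335, minus strand: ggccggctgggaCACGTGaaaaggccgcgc
Tfrc, chr16:32608767-32608796, plus strand: cgcagccaatcgCACGCGctctcccgacac
CACGTG was found for 2 of the 6 genes, Hspd1 and Nme1, and in 6.02% of the 32851 promoters of the table over the same 250 bases. CACGCG was found for 3 of them, Shmt1, Tfrc and Hspe1, and in 7.62% of all promoters. Shmt2 had neither. These matches describe letters in a window, and no binding was measured.

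Of 22800 probes, between 8370 and 21098 carried a value on an array, and the median array measured 17252. Each array was centred on its own median, which before that ranged from -1.42 to 1.24. The overall sign of the ratios is not given in the sources used here, and it was set so that the median Myc level was above 0. Directions against the reference rest on that choice, as does the naming of tumours as high or low, whereas the sizes of differences do not. Over all probes the 2 arrays of tumour 656 did not oppose each other before turning (r = 0.0743), unlike those of the other tumours.

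Tfrc and Shmt1 differed most between tumours, Nme1 also differed, and for Shmt2, Hspd1 and Hspe1 the difference was not past the threshold. Thus 3 of the 6 genes were called by limma's moderated F test (Benjamini-Hochberg over 7629 genes, threshold 0.05), where 19.3% of all genes were called. On the values as deposited, without centring, 4 of the 6 were called against 18.9% of all genes, Hspd1 being the addition. Over all genes the median distance from the lowest to the highest tumour was 2.83 on the log2 scale.

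**Figure D1:**
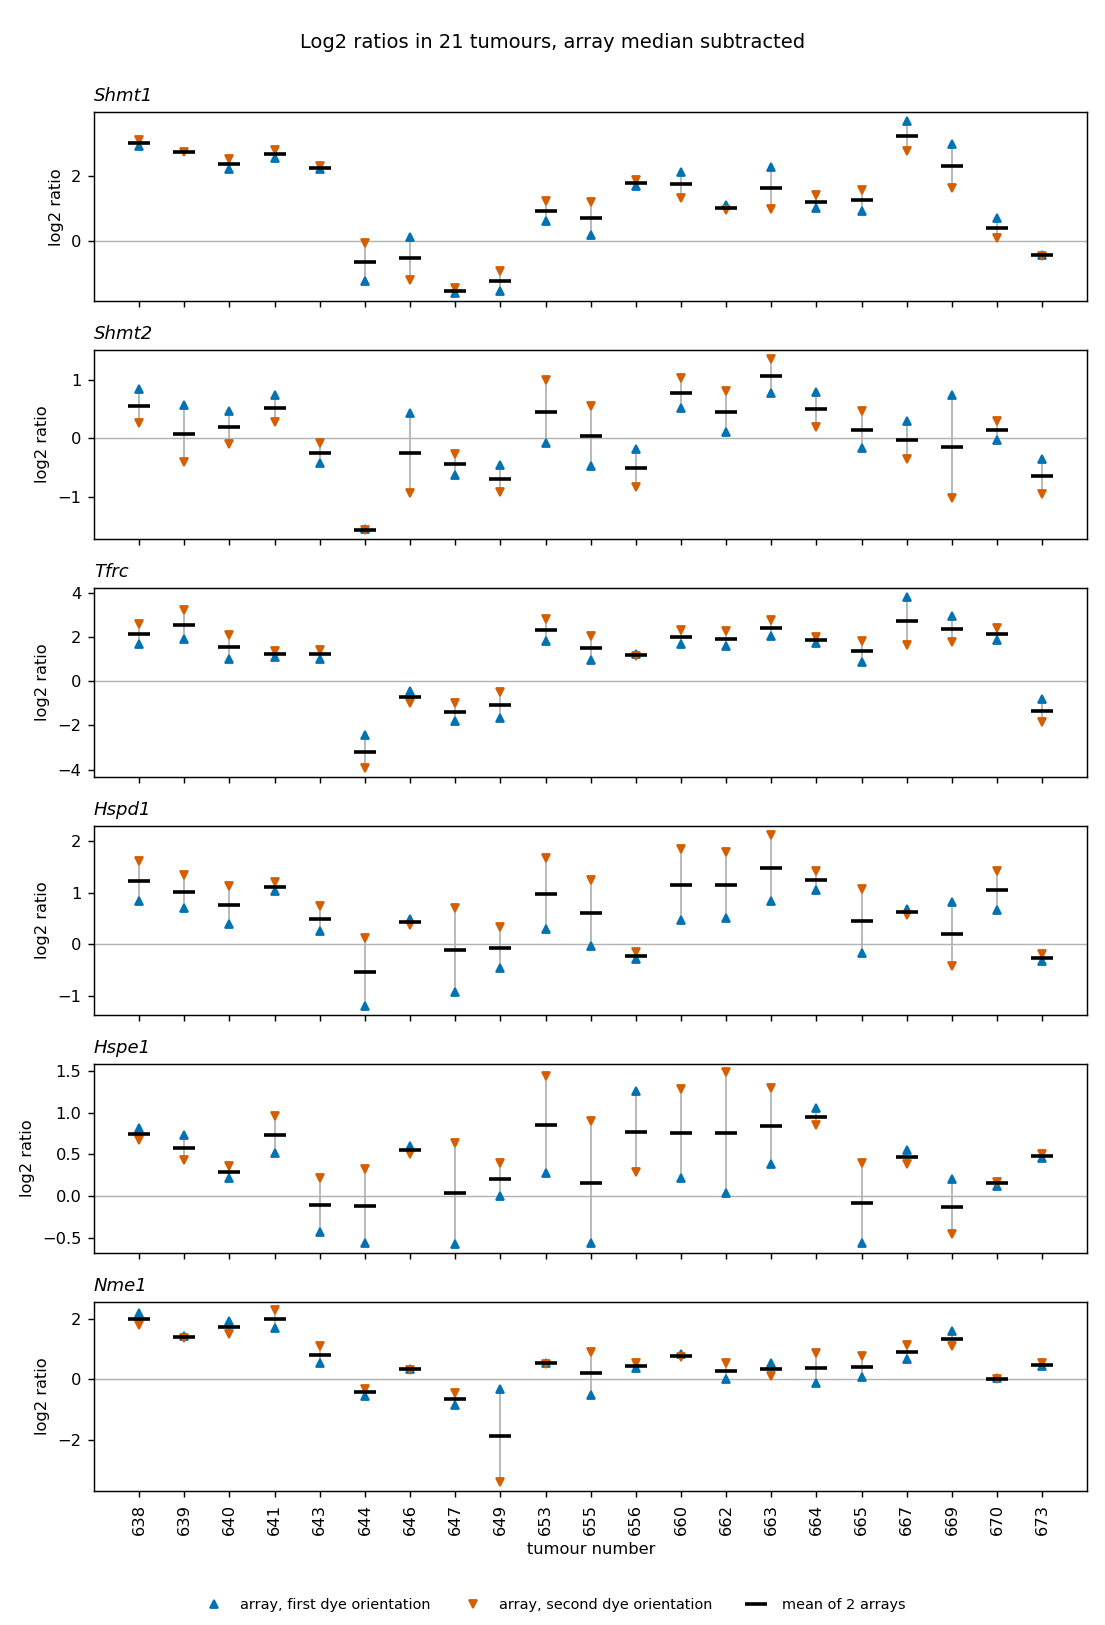
Log2 ratio against the reference (y axis, array median subtracted) of each of the 6 genes in 21 tumours (x axis, tumour number). Triangles are single arrays of the 2 dye orientations, joined by a line, and black bars are their means. Tfrc separates tumours 644, 646, 647, 649 and 673, between -3.19 and -0.71, from the other 16, between 1.18 and 2.74, whereas the arrays of Hspe1 lie as far apart as its tumours.

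Shmt1, the cytosolic serine hydroxymethyltransferase, had its lowest level in tumour 647, at -1.5, a median of 1.26 and its highest level in tumour 667, at 3.21 (SE 0.40, n = 2 arrays per tumour). The arrays were at -1.43 and -1.56 in tumour 647 and at 3.68 and 2.75 in tumour 667. Tumours 644, 646, 649 and 673 were the others with a mean below 0, and 638, 639, 640 and 641 followed 667 at the top. The distance between the extremes was 26.2-fold, and the difference between tumours was called (limma's moderated F test, adjusted p = 4.71e-06, and 5.34e-05 as deposited). The share of variance between tumours, the intraclass correlation of the 2 arrays, was 0.86, against a median of 0.20 over all genes. Tumour 639 had 1 array with a value for Shmt1, so its mean rests on that array. Between single tumours, 65 of 210 pairs differed by at least 1 on the log2 scale with an adjusted p under 0.05, where 2.24% of all gene and pair combinations did. As deposited, 47 pairs did, where 1.94% of all combinations did.

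Shmt2, the mitochondrial enzyme, ran from -1.57 in tumour 644 through a median of 0.08 to 1.08 in tumour 663 (SE 0.41). Both arrays of tumour 644 were low, at -1.58 and -1.56, while tumour 669 had arrays at -1.02 and 0.74. Most tumours lay within the error of each other, and the adjusted p of limma's F test was 0.138 (0.205 as deposited). Centring on the median of the tested probes alone gave an adjusted p of 0.0157. Of the pairs of tumours, 2 were called, both with tumour 644 as the lower one, against tumours 660 and 663. Shmt1 and Shmt2 did not share their highest tumour, since tumour 667 was at 3.21 for Shmt1 and at -0.03 for Shmt2.

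Tfrc, the transferrin receptor, had the largest distance of the 6 genes, from -3.19 in tumour 644 to 2.74 in tumour 667, with a median of 1.54 (SE 0.50). Tumour 644 had arrays at -3.95 and -2.44, and tumour 667 at 3.83 and 1.65. The difference between tumours was called (limma's moderated F test, adjusted p = 7.18e-06, and 1.36e-06 as deposited), and the intraclass correlation was 0.83. The 5 tumours below 0 were 644, 647, 673, 649 and 646, from low to high, and a gap of 1.89 separated tumour 646 from tumour 656, the next. That gap was the widest between neighbours in the order of any of the 6 genes, yet it was not called among the 210 pairs, of which 65 were (72 as deposited). All 65 joined a tumour below 0 with one above it. The 2 Tfrc probes put tumour 644 lowest, at -3.56 and -2.83, and were each called in the test over all probes (adjusted p = 5.72e-05 and 1.94e-05), where 18.2% of probes were. They differed by up to 1.56 in a single tumour.

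Hspd1, the barrel of the chaperonin, ran from -0.54 in tumour 644 to 1.49 in tumour 663, with a median of 0.63 (SE 0.49). One dye orientation read on average 0.68 lower than the other on the centred scale and 0.18 lower as deposited, with unequal gaps, since tumour 663 had arrays at 0.84 and 2.13 and tumour 646 at 0.49 and 0.38. The intraclass correlation was 0.20 on the centred scale and 0.77 as deposited. The adjusted p of limma's F test was 0.356 on the centred scale and 0.00392 as deposited. As deposited, the lowest tumour was again 644, at -0.48, and the highest was 641, at 1.33, with 17 of 210 pairs called. On the centred scale 0 pairs were called by limma, although 19 had an unadjusted p under 0.05 with a difference of at least 1.

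Hspe1, the lid of the chaperonin, had the shortest distance of the 6 genes, 1.08, from -0.13 in tumour 669 to 0.95 in tumour 664, with a median of 0.48 (SE 0.42). Tumour 669 had arrays at -0.46 and 0.20, and 1.17% of all genes had a distance as short or shorter. In none of the 21 tumours were both arrays below 0, and in 14 both were above it. The adjusted p of limma's F test was 0.841, and 0.0898 as deposited. No pair of tumours was called by limma on either scale, with 0 pairs at an unadjusted p under 0.05 on the centred scale and 9 as deposited. With the dye orientation as a covariate on the deposited scale, chosen after seeing the data, the adjusted p was 0.0221, and all 6 genes were called among 3437 genes in all. A probe for a pseudogene of the family, Hspe1-ps6, had both arrays in 6 tumours only and was not tested.

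Nme1 ran from -1.85 in tumour 649 to 2.00 in tumour 638, with a median of 0.46 (SE 0.44). Tumour 641 stood beside tumour 638, at 1.99, and tumours 640, 639 and 669 followed. The lowest mean rests mostly on 1 array, because tumour 649 had arrays at -3.39 and -0.32, the largest disagreement between arrays for any of the 6 genes. The difference between tumours was called (limma's moderated F test, adjusted p = 0.00636, and 0.0181 as deposited), and the adjusted p stayed between 0.000105 and 0.016 when each array was left out in turn. Of 210 pairs, 16 were called, 11 of them with tumour 649, and 8 were called as deposited. The probe of the neighbouring paralog Nme2 had both arrays in 10 tumours and failed the filter, and whether Nme2 follows Nme1 was not tested. The probe sequences were not used here, so signal shared between Nme1 and Nme2 cannot be told apart.

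No 2 neighbours in the order of levels were called as different for any of the 6 genes in limma's 20 neighbour contrasts per gene (2 of Tfrc and 0 of the others at an unadjusted p under 0.05). The low ends of the orders nevertheless overlapped between genes. Tumours 644, 646, 647, 649 and 673 were the 5 lowest for Shmt1 and for Tfrc, and also the 5 lowest for Myc. Of the 5 lowest tumours, Shmt2 and Hspd1 shared 4 with Myc, Nme1 shared 3 and Hspe1 shared 2. For Shmt2 and Hspd1, tumour 656 stood in the place of tumour 646. Tumour 656 had the second highest Myc level, 3.32, with Shmt2 at -0.50 and Hspd1 at -0.22. The high ends overlapped less. The 5 highest were 638, 653, 656, 660 and 667 for Myc, 638, 639, 640, 641 and 667 for Shmt1, and 639, 653, 663, 667 and 669 for Tfrc. The share of all genes with the same lowest tumours is not given here, so these counts have no background beside them.

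Myc itself ran from -0.73 in tumour 644 to 3.52 in tumour 667, with a median of 1.98 (SE 0.52; limma's moderated F test, adjusted p = 0.000657). Its levels fell into 3 separate components, of 5 tumours between -0.73 and -0.23, 14 between 1.63 and 2.74, and 2 at 3.32 and 3.52. Because these components lie apart, relations to Myc are given within the 14 and not as a single correlation over all tumours. There, none of the 6 genes was related to Myc by limma's regression over 7628 genes (adjusted p = 1 for each), where 0% of genes were called and 2.4% had an unadjusted p under 0.05, none of the 6 among them. The correlations ran from r = 0.04 for Nme1 (permutation p = 0.88, rho = 0.07) to r = 0.33 for Hspe1 (permutation p = 0.25, rho = 0.29), as 6 relations in all. Between the 2 arrays of a tumour Myc itself correlated at -0.27 over these 14, so the Myc levels within them hold little that repeats between arrays. As deposited, where array medians stay in the values, Shmt1 (r = 0.69, adjusted p = 0.0168) and Nme1 (r = 0.70, adjusted p = 0.0158) were called, where 45.1% of all genes were called on Myc, so these calls are near the background. The deposited levels of Myc, Shmt1 and Nme1 also followed the mean array median of the tumour, with r = 0.82, 0.76 and 0.80 over the 14.

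**Figure D2:**
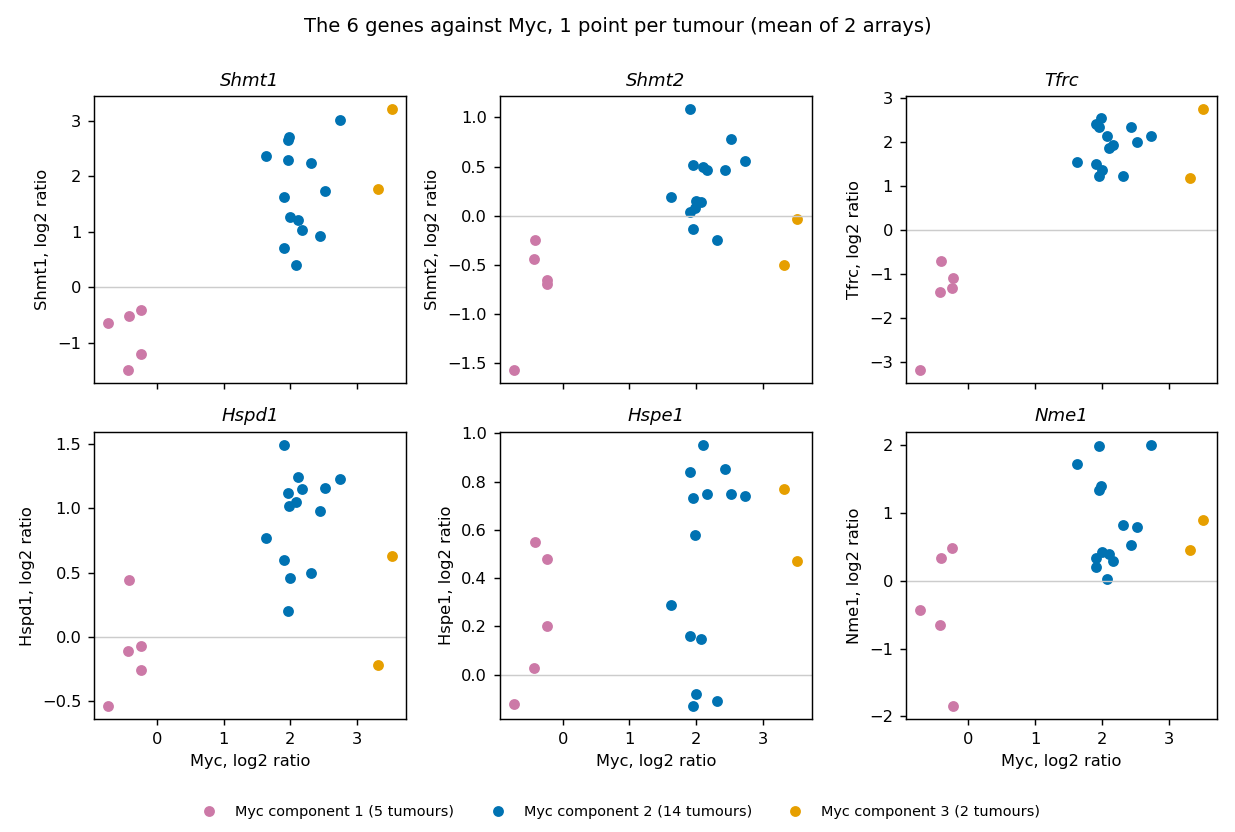
Log2 ratio of each of the 6 genes (y axis) against that of Myc (x axis), both relative to the reference with the array median subtracted, 1 point per tumour as the mean of 2 arrays. Colours mark the 3 components of Myc, with 5, 14 and 2 tumours. Shmt1 and Tfrc lie below 0 in the 5 tumours of the first component and above 0 in all others, while within the 14 no slope with Myc was called.

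Epithelial, mesenchymal and macrophage marker lists moved with the same tumours. Tumours 644, 646, 647, 649 and 673 held the 5 highest mean levels of 12 measured mesenchymal and matrix markers, between 0.87 and 2.23, where the others lay between -4.06 and -1.99. They held the 5 highest mean levels of 11 macrophage markers, between 1.59 and 2.02 against -1.51 to 0.89. They also held the 5 lowest mean levels of 13 epithelial markers, between -0.74 and 0.48 against 0.79 to 2.14. Single epithelial markers did not all follow the mean. Epcam and Spint2 were lowest in tumours 646 and 649, but Krt7 and Krt8 were highest in tumours 644 and 649. Krt7 was called and Krt8 was not (F test, adjusted p = 0.0162 and 0.196), the reverse of the deposited scale (0.253 and 0.00696). All 12 mesenchymal and matrix markers, 9 of the 11 macrophage and 8 of the 13 epithelial markers were called between tumours, where 19.3% of all genes were. Of the proliferation markers 4 of 17 were called (23.5%), near that share. For 17 proliferation markers the 2 ranges overlapped, from -0.66 to 0.42 and from -1.27 to 0.22. Of the erythroid markers, of interest because red cell precursors carry much transferrin receptor, only 2 were tested, and their mean ran from 1.98 to 4.54 in these 5 tumours and from 0.33 to 2.97 in the others, with r = -0.05 against Tfrc over the 14 tumours. The part of cell makeup in the low Shmt1 and Tfrc levels was not tested. Whether the mesenchymal signal came from tumour cells or from other cells was not tested either. In whole tissue fewer cells of a type and less RNA per cell cannot be told apart.

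Within the 14 tumours, 3 of the 15 pairs among the 6 genes were called. Each pair was tested by regression on 1 of its genes, the first in the order Shmt1, Shmt2, Tfrc, Hspd1, Hspe1, Nme1. The calls depend on that choice, because 0% of genes, and so not Shmt2, were called on Hspd1 or on Hspe1. Shmt1 and Nme1 had the highest correlation (r = 0.92, permutation p = 2e-05; rho = 0.93, permutation p = 3e-05). In limma's regression of all genes on Shmt1 the adjusted p of Nme1 was 0.00283, where 11.8% of genes were called, and r stayed at 0.89 without the 2 tumours farthest from the median of Shmt1. Tumours 638, 639, 640, 641 and 669 were high for both genes, and tumour 670 was the lowest of the 14 for both, at 0.40 and 0.02. Shmt2 was related to Hspd1 (r = 0.85, permutation p = 8e-05, rho = 0.85, adjusted p = 0.0384) and to Hspe1 (r = 0.82, permutation p = 0.00021, rho = 0.78, adjusted p = 0.0392, and 0.0525 as deposited), where 6.42% of genes were called on Shmt2. Without the 2 tumours farthest from the median of Shmt2, the adjusted p of these relations became 0.283 and 0.241, with r at 0.80 and 0.83. The chaperonin pair, Hspd1 and Hspe1, had r = 0.89 (permutation p = 7e-05, rho = 0.81), but the adjusted p in limma's regression was 0.0737, where 0% of genes were called on Hspd1. It was under 0.05 as deposited (0.0224), centred on the tested probes (0.0332), in each dye orientation alone (0.0453 and 0.0141), with block means subtracted (0.036) and without tumour 638 (0.0471).

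These correlations were lower when the first gene was read from one array of each tumour and the second from the other array. Shmt1 and Nme1 had r = 0.55 and 0.77 in the 2 ways of doing so, and neither was called over all genes (adjusted p = 0.305 and 0.0634). Shmt2 and Hspd1 dropped to 0.06 and -0.19, Shmt2 and Hspe1 to 0.01 and -0.11, and Hspd1 and Hspe1 to 0 and 0.24. A gene set against itself across the 2 arrays gave the same division, with 0.66 for Shmt1 (13 tumours) and 0.71 for Nme1, but -0.15 for Shmt2, 0.05 for Hspd1 and 0.14 for Hspe1, where the median over all genes was 0.19. Tfrc was between them, at 0.38. Centred levels of Shmt2, Hspd1 and Hspe1 also moved against the array median that had been subtracted, with r = -0.80, -0.68 and -0.68 over the 14 tumours, whereas Shmt1 and Nme1 were at 0.47 and 0.50.

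**Figure D3:**
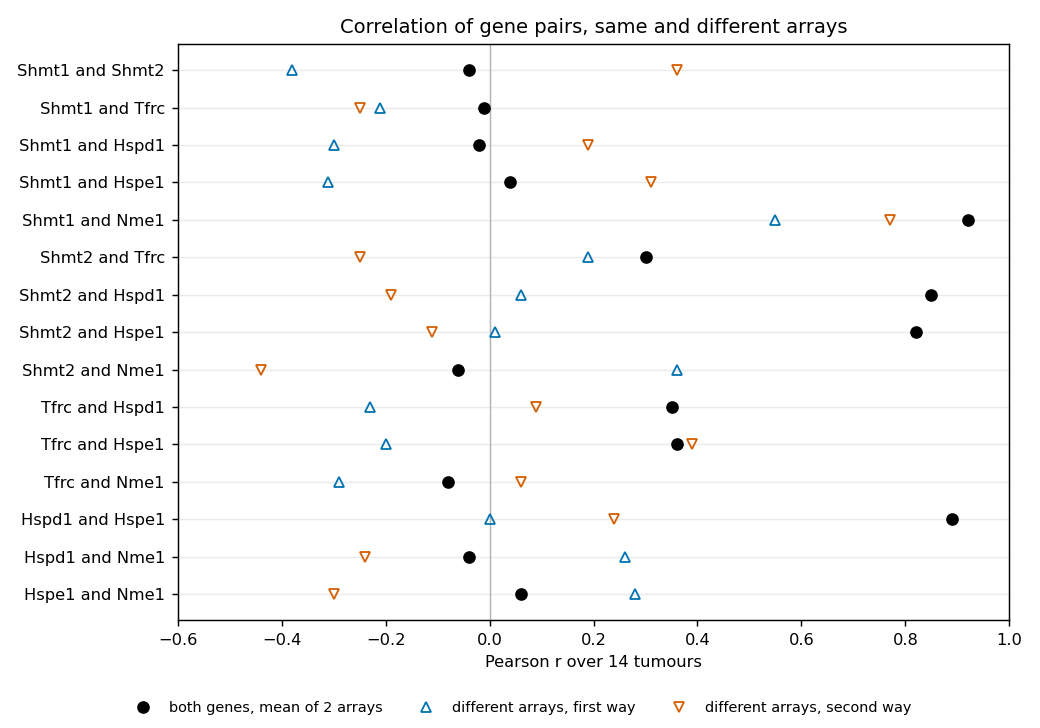
Pearson r over 14 tumours (x axis) for the 15 pairs of the 6 genes (y axis). Filled points use the mean of 2 arrays for both genes, and open triangles take the 2 genes from different arrays, both ways. The Shmt1 and Nme1 triangles, at 0.55 and 0.77, lie below their filled point at 0.92, while those of Shmt2 with Hspd1, at 0.06 and -0.19, lie near 0.

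The arrays were put into 3 blocks of 9, 13 and 20 by the running numbers in their titles, and the labels state no such blocks. The numbers also jump inside block 1, by more than between blocks 2 and 3, so other cuts could be made. Blocks 2 and 3 each held arrays of 7 of the 14 tumours and block 1 held too few. The arrays of tumours 660, 664 and 665 fell in both blocks, so the 2 sets cover 11 tumours and are not independent. Shmt1 and Nme1 had r = 0.38 and 0.86 within them, and an adjusted p of 0.117 with r = 0.81 when block means were subtracted. Hspd1 and Hspe1 had r = 0.94 and 0.87 within the same blocks, and Shmt2 and Hspd1 had 0.93 and 0.47. Shmt2 and Hspe1 had 0.89 and 0.65. Against Myc, Nme1 had r = 0.96 in block 2 and -0.32 in block 3.

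The levels of marker lists over the 14 tumours differed between the genes. The epithelial list correlated with Shmt1 and with Nme1 at r = 0.81 each. In the regression on either gene 5 of its 13 markers were called (38.5%), namely Epcam, Cldn3, Cldn7, Spint2 and Perp. Of all genes, 11.8% were called on Shmt1 and 18.8% on Nme1. The keratins Krt7, Krt8, Krt18 and Krt19 were called on neither. The macrophage list had r = 0.58 with Shmt1 and 0.70 with Nme1, and the mesenchymal and matrix list -0.47 and -0.46. The proliferation list had r = 0.70 with Hspe1, 0.64 with Hspd1, and 0.60 with both Tfrc and Shmt2, but -0.31 with Shmt1 and -0.24 with Nme1. Without the 2 tumours farthest from the median of the list, r was 0.60 for Hspe1, 0.68 for Hspd1, 0.41 for Tfrc and 0.45 for Shmt2. None of the 17 proliferation markers was called on these genes, where 6.42% of all genes were called on Shmt2 and 0% on the others. On Shmt1 and on Nme1, 2 of the 17 fell. List and gene levels come from the same arrays. The part of cell makeup in the relation of Shmt1 to Nme1 was not tested.

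Around Shmt1 and Shmt2, 22 other genes of one-carbon and folate metabolism were tested and 5 differed between tumours, Psat1, Mthfd1, Slc25a32, Bhmt and Mthfs. That is 22.7%, close to the 19.3% of all genes. As deposited 5 were called as well, 3 of them the same. The median distance between the extreme tumours of the list was 2.65. Psat1, which makes the precursor of serine, ran from -2.17 in tumour 644 to 1.5 in tumour 663 (F test, adjusted p = 0.00519). On the centred scale Shmt2 had the same extreme tumours, as had genes outside the list such as Nsun2 and Nop56. As deposited, Shmt2 was highest in tumour 641, at 0.73. Mthfd1, the cytosolic enzyme that interconverts folate-bound carbon units, ran from -1.14 in tumour 644 to 1.74 in tumour 660 (F test, adjusted p = 0.0163, and 0.0563 as deposited). Slc25a32, the mitochondrial folate carrier, was lowest in tumour 663, at -2.93, and highest in tumour 660, at 1.20 (F test, adjusted p = 0.0324). Gart, a purine synthesis enzyme, had the largest p of the list (F test, adjusted p = 0.869). Within the 14 tumours Psat1 was the only gene of the list called on Shmt2, 4.55% of the list where 6.42% of all genes were called. Mthfs and Folr1 rose with Shmt1 while 2 others fell, 18.2% of the list where 11.8% of all genes were called.

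Of 21 other genes of iron uptake, storage and use, 7 differed between tumours (33.3%, where 19.3% of all genes did). As deposited 5 differed, where 18.9% of all genes did, and 4 differed on both scales. Lcn2, a carrier of iron-binding siderophores, had the smallest p, from -1.47 in tumour 649 to 6.86 in tumour 656 (F test, adjusted p = 5.57e-08). Cp, the copper oxidase that readies iron for transferrin, was lowest in tumour 667, at -7.71, where Tfrc was highest, and highest in tumour 647, at 0.72 (F test, adjusted p = 0.00102). Hmox1, which frees iron from haem, was also lowest in tumour 667, at -3.27, and highest in tumour 663, at 0.09 (F test, adjusted p = 0.00206, and 0.0757 as deposited). The ferritin subunits Ftl1 and Fth1, which store iron, were both called (Ftl1 with an adjusted p of 0.00865, and 0.14 as deposited), with their highest levels at 0.29 in tumour 663 and 0 in tumour 647. Hmox2 had the largest p (F test, adjusted p = 0.985). Within the 14 tumours 0 of the 21 genes were called on Tfrc by limma's regression, where 0% of all genes were called and 1.93% had an unadjusted p under 0.05.

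Among 27 mitochondrial chaperones and proteases beside Hspd1 and Hspe1, 5 differed between tumours (18.5%, where 19.3% of all genes did). As deposited 6 did, where 18.9% of all genes did. Htra2, a protease, ran from -4.77 in tumour 638 to 1.49 in tumour 656 (F test, adjusted p = 0.000371). Lonp1, the matrix protease, ran from -2.25 in tumour 656 to 0.51 in tumour 660 (F test, adjusted p = 0.00518), and C1qbp from -0.76 in tumour 644 to 1.89 in tumour 641 (F test, adjusted p = 0.0108). Yme1l1 had the largest p (F test, adjusted p = 0.981, and 0.063 as deposited). The median correlation of the list over the 14 tumours was 0.49 with Hspd1 and 0.49 with Hspe1, where the medians over all genes were 0.03 and 0.04. In limma's regression 0 of the 27 were called on either gene, where 0% of all genes were. Of the 22 cytosolic chaperones 4 differed (18.2%), and 8 did as deposited. They were led by Pfdn4, highest in tumour 663 at 3.41 (F test, adjusted p = 7.61e-06), Cryab, highest in tumour 673 at 1.85 (F test, adjusted p = 0.000152), and Hspb1, highest in tumour 638 at 2.64 (F test, adjusted p = 0.0387), and Tcp1 had the largest p. The median correlation of the 22 with Hspd1 and with Hspe1 was 0.47, and 0 of them were called on either.

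Of 31 other genes of nucleotide synthesis, 5 differed between tumours (16.1%, where 19.3% of all genes did). As deposited 3 did, where 18.9% of all genes did. Ak3, a mitochondrial adenylate kinase, ran from -1.47 in tumour 647 to 1.97 in tumour 656 (F test, adjusted p = 0.00376). Ak1 ran from -2.48 in tumour 660 to 1.5 in tumour 673 (F test, adjusted p = 0.00499), and Rrm2, a ribonucleotide reductase subunit, from -0.76 in tumour 656 to 1.72 in tumour 663 (F test, adjusted p = 0.0125, and 0.124 as deposited). Impdh1 had the largest p (F test, adjusted p = 0.985). Within the 14 tumours 5 of the 31 rose with Nme1, namely Nme3, Paics, Guk1, Ak3 and Ada, and none fell, which is 16.1% of the list where 18.8% of all genes were called on Nme1. Of 11 genes of the Myc network, Myc itself and Mga, a partner of Max, were called (18.2%, where 19.3% of all genes were). Mga ran from -3.13 in tumour 663 to 1.26 in tumour 660 (F test, adjusted p = 0.00182), Mxd3 had an adjusted p of 0.095 and Mxi1 the largest p. Max, the partner of Myc, had its lowest level, 0.56, in tumour 644.

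**Figure D4:**
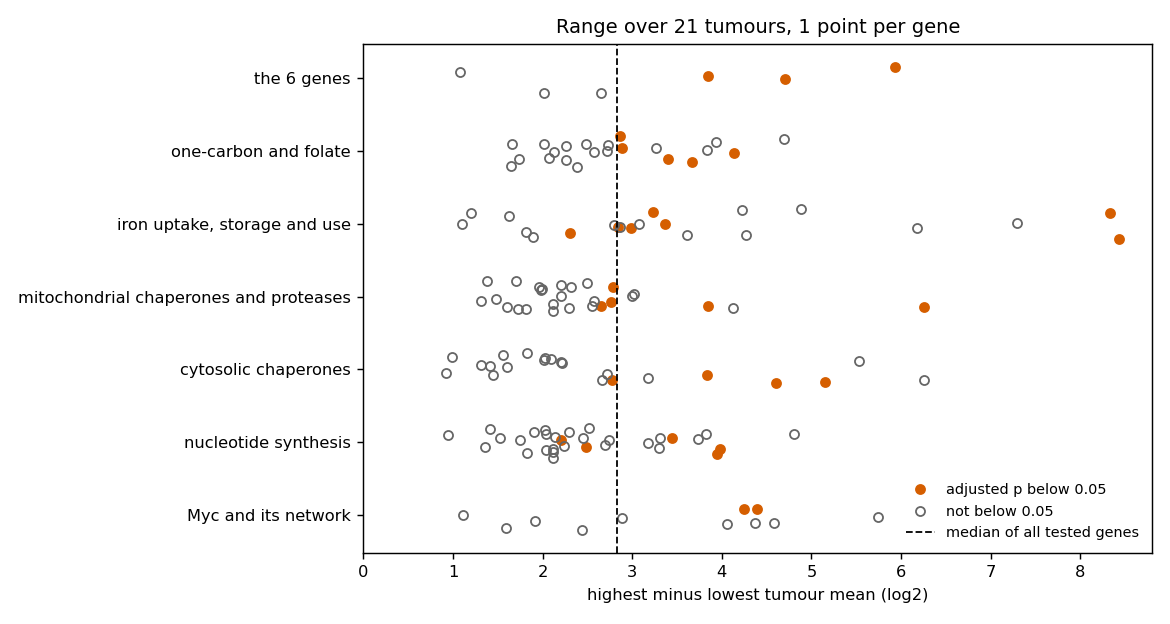
Distance from the lowest to the highest tumour mean (x axis, log2 units) for the 6 genes and for each tested gene of 6 pathway lists (y axis), 1 point per gene, with points spread vertically only to separate them. Filled points had an adjusted p under 0.05 in limma's moderated F test, and the dashed line is the median of all tested genes, 2.83. Tfrc, Shmt1 and Nme1 lie above that line, and Shmt2, Hspd1 and Hspe1 below it.

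The genes whose pattern over the 21 tumours was most like each of the 6 were found by Pearson correlation among 7618 genes. For Shmt1 they were Ly96 (r = 0.94), Lap3 (0.93) and Hsdl2 (0.93). For Tfrc they were Asns, asparagine synthetase (0.91), Psmg1 (0.91) and Pla2g12a (0.90). For Nme1 they were Smpdl3b (0.88), Guk1, guanylate kinase (0.87), and Mdh1, malate dehydrogenase (0.86). Shmt2 was nearest to Eif2b1 (0.95), Nsun2 (0.94) and Uqcrc2 (0.94), and Hspd1 to Nsun2 (0.96), Nop56 (0.95) and Uqcrc2 (0.95). Hspe1 was nearest to Cox6a1 (0.85) and to the ribosomal genes Fau (0.83) and Rps7 (0.82). For Tfrc, r over the 21 tumours spans the gap between 5 low tumours and the other 16. Over the 14 tumours alone the nearest genes to Tfrc were Stip1, Prpsap1 and Polr3c. Those to Shmt2 were then Tomm6, Mcts1 and Ndufa5, and those to Hspd1 were Pebp1, Tomm20 and Psmd6. For Nme1 they were then Ndufb3, Coasy and Dhcr7, and for Hspe1 Rasl2-9, Eif4g2 and Ppid. The names for all genes but Shmt1 thus depend on which tumours enter, whereas Shmt1 kept Lap3 and Ly96 (0.93 each). The points of each correlation share arrays and their centring. None of the 3 genes nearest to Hspe1 over the 21 tumours differed between tumours (F test, adjusted p between 0.849 and 0.954). Psmg1 (F test, adjusted p = 0.438), Eif2b1 (0.0762), Guk1 (0.0748) and Mdh1 (0.0728) were not called either.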

How the data were processed

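The 6 genes, the gene lists and the tests were chosen with earlier results of these data known. Per the labels, tumour RNA was labelled with Cy3 or Cy5 and hybridised in dye-swapped pairs. The authors deposited log2 dye ratios, a scale read from the values. How images were processed, background corrected and values normalized, and which dye an array's tumour carried, is unstated in the labels.

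The repeated top value of 16.61 (2.14% of values) was set to missing and 232 control spots were averaged to 1. The orientation of each pair came from the first eigenvector of the correlations of the pair differences over tumours, and Myc set the overall sign. Before turning, the 2 arrays of a tumour correlated below 0 in 20 of 21 tumours. Arrays were centred on their medians, and levels and tests share that scale. Probes with both arrays of at least 15 of 21 tumours were kept, and probes of a gene were averaged. Genes were named through the platform annotation (16874 probes with 1 symbol, 134 with several, 5792 with none).

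Tumours were compared with a one-way linear model, limma 3.58.1 variance moderation (R 4.3.3) and Benjamini-Hochberg adjustment over all genes, or over all genes and 210 pairs together. The F test was tested on simulated data. Relations used limma regression over all genes and 100000 permutations (two-sided). Components came from mclust 6.1.1 (up to 3). Named genes were the 6, Myc, Nme2, from each pathway list the 3 smallest p and the largest, and the 3 most alike by r; others were named after their values were seen. Alternatives covered centring, quantile normalization, filters, the top value, dim spots, dye orientation, title blocks, tumour 656 and left-out arrays or tumours. The number of arrays limits the precision.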

Additional observations from a re-analysis of the deposited data

How the results depend on the processing

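The 3 calls of Shmt1, Tfrc and Nme1 held with each of 42 arrays left out in turn, where between 1154 and 1817 genes were called (1473 with all arrays) and 3 of the 6 genes each time. The number of genes called was 870 of 3326 when both arrays of all tumours were required, fewer genes being tested; Shmt1 was then not tested, and 2 of the 5 others were called. It was 3437 with the dye orientation as a covariate on the deposited scale, chosen after seeing the data, with 6 of the 6 genes called; the cause was not tested. Shmt2, Hspd1 and Hspe1 changed their side of the threshold only in the settings named with them above or in this one, with adjusted p of 0.00214, 0.000562 and 0.0221 here. Over the 14 tumours, 2 genes were related to Myc on the deposited scale, against 0, where 45.1% of all genes were called on Myc and deposited levels of Myc followed the array median (r = 0.82). The relations among the 6 genes over these tumours were also taken after seeing the data. There 3 of 15 pairs were called, 9 as deposited (where between 0% and 49.6% of all genes were called on the first gene of a pair), 1 without the 2 farthest tumours, and 0 and 0 with the genes from different arrays (limma regression; the cause was not tested), while leaving out each tumour gave 1 to 4. The count was 1 without tumour 643, 653, 655, 660, 662, 663, 665 or 669, Shmt1 with Nme1 being called in each of the 14 cases (adjusted p between 0.00254 and 0.0171). Across arrays, Shmt2 turned to r = -0.19 with Hspd1 and to -0.11 with Hspe1. No paired analysis was possible because the labels give no replicate numbers shared between tumours. Missing values limit Nme2 and Hspe1-ps6, and signal over background was not given in the values used here.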
